A study of Mus musculus with 19 samples.

Results

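Spleens of 3 Rosa26-HGAL+Sca1-Cre mice taken before tumours arose (pre-tumour) were compared with spleens of 3 wild-type mice. The members were the arrays whose titles name these groups, 6 of the 19 arrays in the series. Each pre-tumour mouse carried a conditional HGAL gene in the Rosa26 locus and a Cre recombinase driven by Sca1 sequences, and the wild-type mice carried neither. The Sca1 promoter is active in haematopoietic stem and progenitor cells, so their descendants of every blood lineage can carry the recombined allele. Total RNA of whole spleen was labelled with biotin and read on 1 Affymetrix array per mouse. The array titles name the samples as splenic cells, and how these were prepared cannot be told from the titles. All mice lived in a conventional facility with exposure to common pathogens. Strain, age and sex are not stated in the labels, and a Sca1-Cre or Rosa26-HGAL group on its own was not analysed here, so the transgenes, Cre and any difference in background between the groups cannot be told apart. The other arrays came from spleens with tumours, 4 of the Sca1-Cre line, 4 of the Aid-Cre line and 5 of the Mb1-Cre line. The 4 Sca1-Cre tumours, which have the same labelled genotype as the pre-tumour mice, were set beside them.

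HGAL is an adaptor protein of germinal centre B cells that binds the kinase Syk and strengthens signalling from the B cell receptor, and its mouse counterpart is Gcsam. The spleen filters blood in its red pulp, where the mouse also makes red cells, and holds B cell follicles and T cell zones in its white pulp. RNA from whole spleen is thus a sum over lymphocytes, red cell precursors, myeloid cells and stroma. In such bulk samples fewer cells of a type and less RNA per cell cannot be told apart.

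The 6 arrays carried the markers of a spleen. Cd79a, which carries the signal of the B cell receptor, lay between 11.98 and 12.38 on the log2 array scale. Cd3e, a chain of the T cell receptor complex, lay between 9.94 and 11.11. Slc4a1, the anion exchanger of the red cell membrane, lay between 9.0 and 12.29. A level under the 40th percentile of the array (4.98 to 5.10 over genes) was taken as near background. Across genes, the median standard deviation between arrays came to 0.12 in the pre-tumour and 0.14 in the wild-type group, and the lowest correlation between arrays of a group across genes was 0.988 and 0.986. Signal of Y-linked genes was present in 1 of 3 pre-tumour arrays (replicate 1) and in 3 of 3 wild-type arrays, so sex was unevenly spread. Values with a covariate for sex are given for many of the lists whose median they move, and a list without one is not thereby stable to sex. That covariate was fitted over all 19 arrays. The wild-type arrays share 1 sex signal and do not inform it, so differences between tumours enter these values. Wild type replicate 2 carried more pancreatic transcript than the other wild-type arrays. The median of 18 exocrine pancreas genes stood 0.55 above the wild-type mean on that array, against -0.33 and -0.26 on the others and 0.21, 0.04 and -0.27 on the pre-tumour arrays. The part of either pattern in the results was not tested, apart from the values with the sex covariate and without single arrays.

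Few single genes separated the groups beyond the spread of the arrays. With limma and Benjamini-Hochberg adjustment over 22180 genes, 1 gene was lower in pre-tumour spleens and 0 were higher at an adjusted p under 0.05, which is 0.00451% and 0% of the genes tested. At an unadjusted p under 0.05 there were 1213 genes, and the smallest adjusted p was 0.0443. The median difference of all genes was 0.01, and 11660 of them read higher in the pre-tumour group. Large differences leaned downward. A difference of more than 1 on the log2 scale below wild type was seen in 241 genes, and above it in 46. Of those 241, 218 had no overlap between the 3 pre-tumour and the 3 wild-type arrays, and of the 46, 38 had none. Without a limit on size, the arrays did not overlap for 8.49% of all genes in the lower and 8.35% in the higher direction, and these shares are the background for the counts of list members. Differences are given as pre-tumour minus wild type on the log2 scale, each between the means of 3 and 3 arrays. Adjusted p-values and standard errors are those of limma. Their spread was estimated within groups over all 19 arrays, tumours included, so it can exceed the spread among the 6 compared arrays.

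The HGAL transgene is human, and no probe set used here is named for it. Gcsam, the mouse counterpart, read 5.80, 5.71 and 5.98 in pre-tumour and 6.02, 5.92 and 5.36 in wild-type spleens. The arrays overlapped, and the difference was 0.07 ± 0.81 (adjusted p = 0.999), with a sign that turned without pre-tumour replicate 3 or wild type replicate 3 and with array weights, and it was 0.67 with the sex covariate. This level is that of the mouse gene and does not check the transgene. Gt(ROSA)26Sor, the noncoding transcript of the locus that holds the HGAL allele, read 7.50, 8.11 and 7.88 in pre-tumour and 6.21, 6.72 and 6.31 in wild-type spleens. The groups did not overlap, but the difference of 1.42 ± 0.38 was not called (adjusted p = 0.585). The 4 Sca1-Cre tumours read 7.82, 7.80, 7.55 and 7.30, all above wild type. Arrays of the other Cre lines ranged from 5.56 to 7.41. Gt(ROSA)26Sor was chosen after its values were seen. The genes around it did not move as a block. Among 87 measured genes within 100 positions on either side in gene order, 6 were higher and 7 lower without overlap, their median difference was 0.03, and the smallest adjusted p was 0.781. Cd79a, whose promoter names the Mb1-Cre driver, differed by -0.04 ± 0.70 (adjusted p = 0.999), a sign that also turned under other settings.

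**Figure D1:**
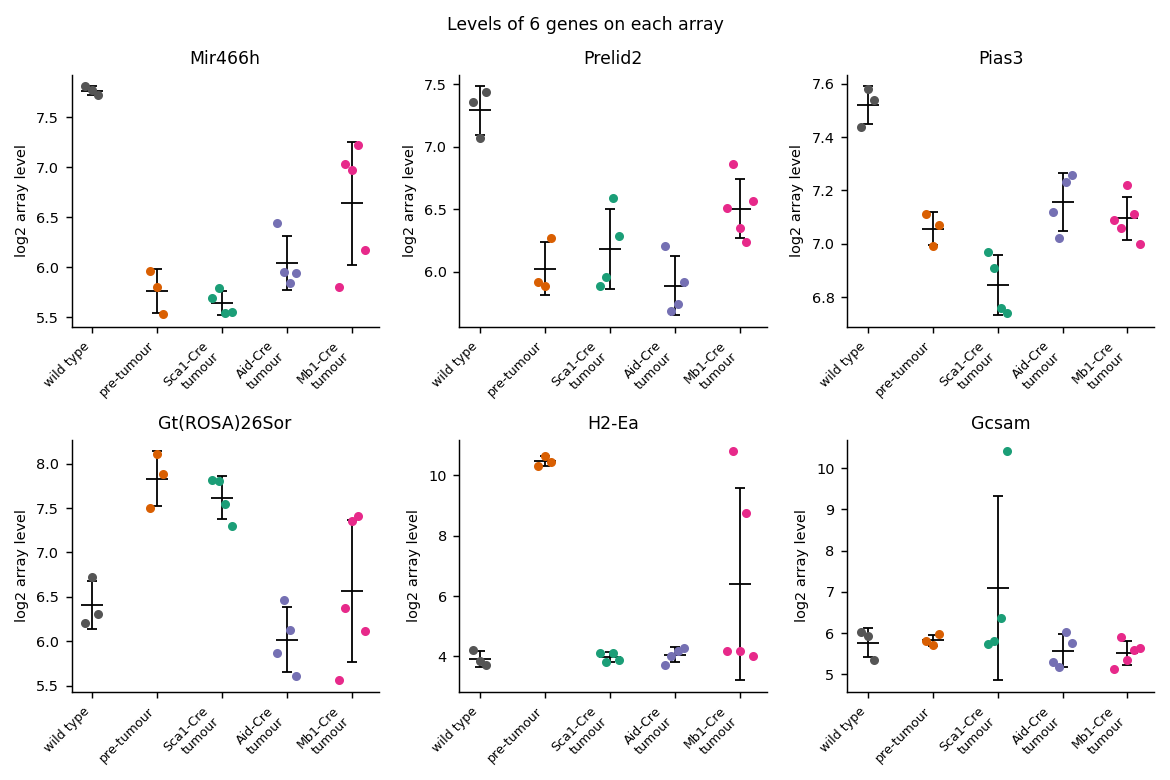
Log2 array levels of 6 genes on all 19 arrays, 1 point per mouse, with the mean and standard deviation of each group as a horizontal mark and bars. Mir466h, Prelid2 and Pias3 read highest in wild type, Gt(ROSA)26Sor is higher in both Sca1-Cre groups, H2-Ea is high in 3 of 3 pre-tumour spleens and in 2 Mb1-Cre tumours, and Gcsam is high in 1 Sca1-Cre tumour.

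The called gene was the microRNA gene Mir466h. It read 5.96, 5.80 and 5.53 in pre-tumour and 7.81, 7.77 and 7.72 in wild-type spleens. The wild-type arrays lay within 0.09 of each other and far above every pre-tumour array. The gene fell by 2.00 ± 0.28, which is 4.01-fold lower (adjusted p = 0.0443). This call rested on all 6 arrays. Without any single 1 of them the difference stayed between -2.10 and -1.89 but the adjusted p ranged from 0.0841 to 0.267, and with the sex covariate it was 0.194. The 4 Sca1-Cre tumours (5.54 to 5.79) stood at the pre-tumour level. The Aid-Cre tumours read 5.84 to 6.44, and the Mb1-Cre tumours ranged from 5.80 to 7.22, all below wild type. Mir466h thus read below wild type in every HGAL group.

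Mir466h belongs to a repeated family of microRNA genes (Mir297, Mir466, Mir467 and Mir669), most of which lie in an intron of Sfmbt2. Of 24 measured genes with these names, a group put together after their values were seen, 7 were lower and 7 higher without overlap, and the median difference was -0.17. Directions within the family were thus mixed. Mir669a-3 read 5.58, 5.19 and 4.50 in pre-tumour and 7.10, 7.42 and 7.86 in wild-type spleens. Its difference of -2.37 ± 0.39 was larger than that of Mir466h but less even between arrays (adjusted p = 0.104). Mir669m-1 lay lower by a smaller step, with a difference of -0.86 ± 0.28 (adjusted p = 0.781). Mir467d went the other way, with 4.34, 4.15 and 4.35 against 3.61, 3.41 and 3.50, a difference of 0.77 ± 0.16 (adjusted p = 0.215). Mir467d and many other members lay near background, where differences are less exact, and near-identical copies can share probes.

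The next genes by p were not called, and their arrays did not overlap. On the lower side the first was Prelid2, a member of a family of lipid carrier proteins of mitochondria. It read 5.92, 5.89 and 6.27 in pre-tumour and 7.36, 7.07 and 7.44 in wild-type spleens, a difference of -1.26 ± 0.19 (adjusted p = 0.0729). As for Mir466h, the Sca1-Cre tumours (5.89 to 6.59) and the tumours of the other lines (5.69 to 6.86) were all below wild type. Pias3, which inhibits the transcription factor Stat3 and acts as a SUMO ligase, read 7.11, 6.99 and 7.07 against 7.44, 7.58 and 7.54, a difference of -0.46 ± 0.09 (adjusted p = 0.193). The Sca1-Cre tumours read lower still (6.74 to 6.97), and their difference from the pre-tumour group was -0.21 ± 0.08. Stard4, a carrier of cholesterol inside cells, read 6.38, 6.42 and 6.36 against 7.20, 6.74 and 7.04, a difference of -0.61 ± 0.12. The Sca1-Cre tumours (6.69 to 6.93) were above all pre-tumour arrays and overlapped wild type.

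Other genes on the lower side were Nop56 (a core protein of box C/D small nucleolar ribonucleoproteins), Tmem63b (a membrane channel), Dtx3 (a Deltex ubiquitin ligase), Ctrc (a pancreatic chymotrypsin), Nr5a2 (a nuclear receptor), Pnma1 and the imprinted noncoding transcript Ipw. Nop56 had the widest step, 9.70, 9.49 and 9.30 against 11.86, 10.89 and 10.63, with a difference of -1.63 ± 0.40 (adjusted p = 0.475). The others differed by -0.60 to -0.43. Nop56 and Tmem63b have several probe sets, and the brightest was used. With the mean of the probe sets the differences were -0.45 for Nop56 and -0.23 for Tmem63b (adjusted p = 0.886 for both), so their size rested on that choice. Ctrc, unlike the pancreas list, was not highest on wild type replicate 2, with 5.83, 5.83 and 6.08 in wild-type spleens. Nr5a2, Pnma1 and Ipw had pre-tumour means near background.

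On the higher side, H2-Ea led by p. It was followed by the surrogate light chain gene Vpreb2, which pairs with the heavy chain in B cell precursors. Vpreb2 read 6.45, 6.27 and 6.21 in pre-tumour and 5.80, 5.56 and 5.76 in wild-type spleens, a difference of 0.61 ± 0.12 (adjusted p = 0.193). The Sca1-Cre tumours (5.89 to 6.28) were above all wild-type arrays and overlapped the pre-tumour group. Of 11 measured pre-B and stem-like lymphoid genes, Vpreb2 among them, 7 read higher, 2 without overlap, and 4 read lower. The median of that list was 0.10, and 0.01 with the sex covariate, so Vpreb2 does not stand for the list. Rab9, a GTPase of transport from endosomes to the Golgi, read 8.03, 8.13 and 8.12 against 7.60, 7.59 and 7.27, a difference of 0.61 ± 0.12 (adjusted p = 0.215). Rab21, a GTPase of early endosomes, differed by 0.42 ± 0.11 (adjusted p = 0.509). Errfi1, a feedback inhibitor of the EGF receptor, read 7.30, 7.01 and 6.90 against 6.34, 6.44 and 6.16, a difference of 0.76 ± 0.18 (adjusted p = 0.475). Btbd11 differed by 0.87 ± 0.22 and the kallikrein Klk1b27 by 1.07 ± 0.28 (adjusted p = 0.509 for both). Mroh3 and Tex13b differed by 0.39 and 0.55 at levels near background. In a fit with array weights, which counts even arrays more, 27 genes were higher and 26 lower, among them H2-Ea, Vpreb2, Rab9, Prelid2 and Pias3.

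H2-Ea gave the largest measured difference of all genes, against wild-type levels near background, so that its size is not exact. It encodes the alpha chain of the class II molecule H2-E, which presents peptides to CD4 T cells, and mice of some inbred strains, those of the H2-b haplotype, make no H2-Ea transcript. It read 10.31, 10.65 and 10.45 in pre-tumour and 4.22, 3.85 and 3.71 in wild-type spleens. The difference was 6.54 ± 1.29 and was not called over all groups (adjusted p = 0.193). The Sca1-Cre tumours read 4.11, 3.82, 4.13 and 3.89, at the wild-type level, and so did the Aid-Cre tumours (3.72 to 4.29). Pre-tumour and tumour spleens of the same labelled genotype thus differed in H2-Ea on every array, and whether these mice shared a strain background cannot be told from the labels. Of the Mb1-Cre tumours, replicates 2 and 4 read 10.79 and 8.76 and the others 4.01 to 4.19. This spread entered the shared standard error. With only the 6 compared arrays in the fit the adjusted p was 6.2e-06, and the genes called there were H2-Ea and Gm19951 higher and Mir466h lower.

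The other class II genes did not share the step of H2-Ea. H2-Eb1, the partner beta chain, differed by 0.03 ± 0.45, H2-Ab1 by 0.00 ± 0.48 and H2-Aa by -0.09 ± 0.47. The median of 11 measured genes of class II presentation was 0.00 (0.21 with the sex covariate). Among 137 measured genes within 100 positions of H2-Ea in gene order, 10 were higher and 15 lower without overlap, and their median difference was -0.01. Of those, Msh5, a meiotic protein related to mismatch repair proteins, was picked out after its values were seen. It had a difference of 1.09 from wild type and of -1.18 between the Sca1-Cre tumours and the pre-tumour spleens. Sapcd1, close to Msh5 in gene order and also picked by its values, had the same directions, at 0.44 and -0.72. For both genes the arrays did not overlap in either comparison.

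Dnah8, which the naming rule gave, and 2 other transcripts of chromosome 17, picked out after their values were seen, had the order of H2-Ea. Dnah8 encodes a dynein heavy chain of cilia and flagella. It read 8.96, 8.40 and 8.29 in pre-tumour, 6.15, 7.47 and 6.44 in wild-type and 6.37 to 6.70 in Sca1-Cre tumour spleens. Its difference from wild type was 1.87 ± 0.48 (adjusted p = 0.509). The noncoding transcript 1700097N02Rik read 8.33, 7.82 and 8.56 against 6.87, 7.33 and 6.73, with 6.93 to 7.15 in the tumours. The transcript 9030025P20Rik read 7.49, 6.85 and 6.33 against 5.48, 6.01 and 5.59, with 5.27 to 5.68 in the tumours. For each, the pre-tumour arrays lay above all arrays of both other groups. Gm19951, a predicted gene of chromosome 12, had another pattern. It read 7.88, 9.19 and 8.20 in pre-tumour and 4.58, 4.50 and 4.92 in wild-type spleens, the latter near background, a difference of 3.76 ± 0.80 (adjusted p = 0.229, and 0.0226 with only the 6 arrays). The Sca1-Cre tumours stayed above wild type, at 6.0 to 7.87.

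**Figure D2:**
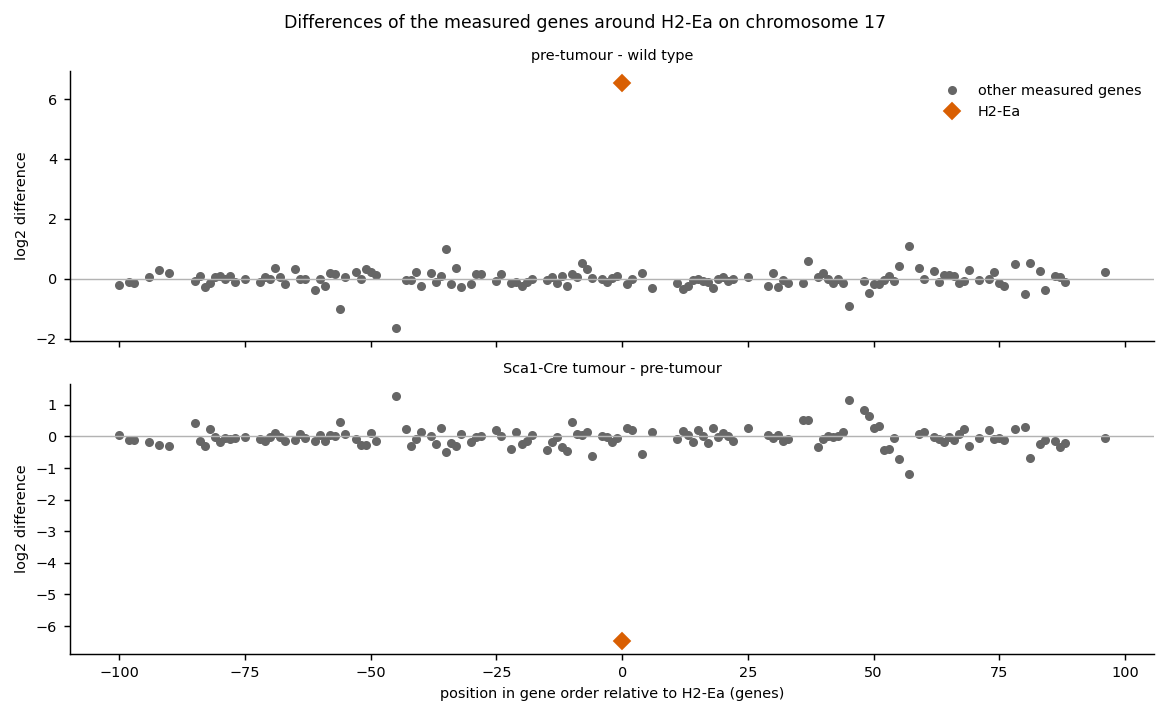
Log2 differences of the 137 measured genes around H2-Ea (grey points) and of H2-Ea itself (diamond) by position in gene order on chromosome 17, for pre-tumour minus wild type (top) and Sca1-Cre tumour minus pre-tumour (bottom). H2-Ea stands at 6.54 and -6.48, while its neighbours range from -1.65 to 1.09 in the upper panel.

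Red cell precursor genes read lower in all pre-tumour spleens. Of 24 listed erythroid genes 18 were measured with a probe set of their own, 0 were called, 0 read higher, and 17 were lower without overlap, against 8.49% of all genes. The median difference was -1.87, against 0.01 for all genes. The 3 with the smallest p were Trim10, a ubiquitin ligase of late erythroid cells, Tspan33, a tetraspanin, and Slc4a1. Slc4a1 read 9.0, 10.60 and 11.26 in pre-tumour and 11.71, 11.58 and 12.29 in wild-type spleens, a difference of -1.58 ± 0.70. Trim10 differed by -2.04 ± 0.90 and Tspan33 by -2.26 ± 1.00, and each of the 3 had an adjusted p of 0.883. The widest differences, picked by size, were those of Rhag, a membrane channel of the Rh complex, at -2.66 ± 1.35, Hemgn (hemogen, a nuclear protein of blood precursors) at -2.41 ± 1.20, and Klf1, a master transcription factor of red cells, at -2.35 ± 1.25. Gata1, which acts above Klf1, differed by -1.26 ± 0.87. The receptor of erythropoietin, Epor, differed by -1.67 ± 0.87 and the transferrin receptor Tfrc, which brings in iron, by -1.71 ± 1.01.

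The spread between pre-tumour spleens was wide. Rhag read 5.08, 7.92 and 9.06 in pre-tumour and 10.05, 9.50 and 10.49 in wild-type spleens, so the first pre-tumour array stood near background and the third close to wild type. Over the list, the pre-tumour arrays stood at -2.89, -1.65 and -0.89 from the wild-type mean and the wild-type arrays at 0.09, -0.43 and 0.38. Without single arrays the median difference ranged from -2.27 to -1.31, with pre-tumour replicate 1, the array with Y-linked signal, furthest out. With the sex covariate it was -1.91.

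Genes of cell division read lower as well, again least so in pre-tumour replicate 3. Of 22 listed mitosis genes 21 were measured, 0 were called, and 21 were lower without overlap, against 8.49% of all genes, with a median difference of -1.49. Mki67, the proliferation marker Ki-67, read 8.08, 10.08 and 10.61 in pre-tumour and 11.41, 11.06 and 11.54 in wild-type spleens, a difference of -1.75 ± 0.80 (adjusted p = 0.883). Birc5 (survivin, of the chromosomal passenger complex) differed by -2.05 ± 0.99 and Prc1, which bundles microtubules of the midzone, by -1.80 ± 0.90. The smallest difference was that of the spindle checkpoint kinase Bub1b, at -0.75 ± 0.66. Over the list, the pre-tumour arrays stood at -2.44, -1.10 and -0.74 and the wild-type arrays at 0.14, -0.39 and 0.24. Without pre-tumour replicate 1 the median was -0.94, and with the sex covariate it was -1.37.

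DNA replication genes read lower by less. All 21 listed genes were measured, 0 were called, 21 read lower and 7 of them did so without overlap, with a median of -0.61. The widest differences were those of Rrm2 (the small subunit of ribonucleotide reductase) at -1.86 ± 0.92, Cdc6 (a loader of the replicative helicase) at -1.57 ± 0.85 and Tk1 (thymidine kinase) at -1.22 ± 0.58. The helicase subunits Mcm4 and Mcm6 differed by -0.14 ± 0.43 and -0.16 ± 0.45. Wild type replicate 2 stood at -0.43, among the pre-tumour arrays (-0.76, -0.54 and -0.27). Without it 19 of the 21 genes were lower without overlap, against 3324 of all 22180 genes. The median was -0.38 with the sex covariate and also without pre-tumour replicate 1. The erythroid, mitosis and DNA replication lists together made up 37 of the 218 genes that were lower by more than 1 without overlap.

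**Figure D3:**
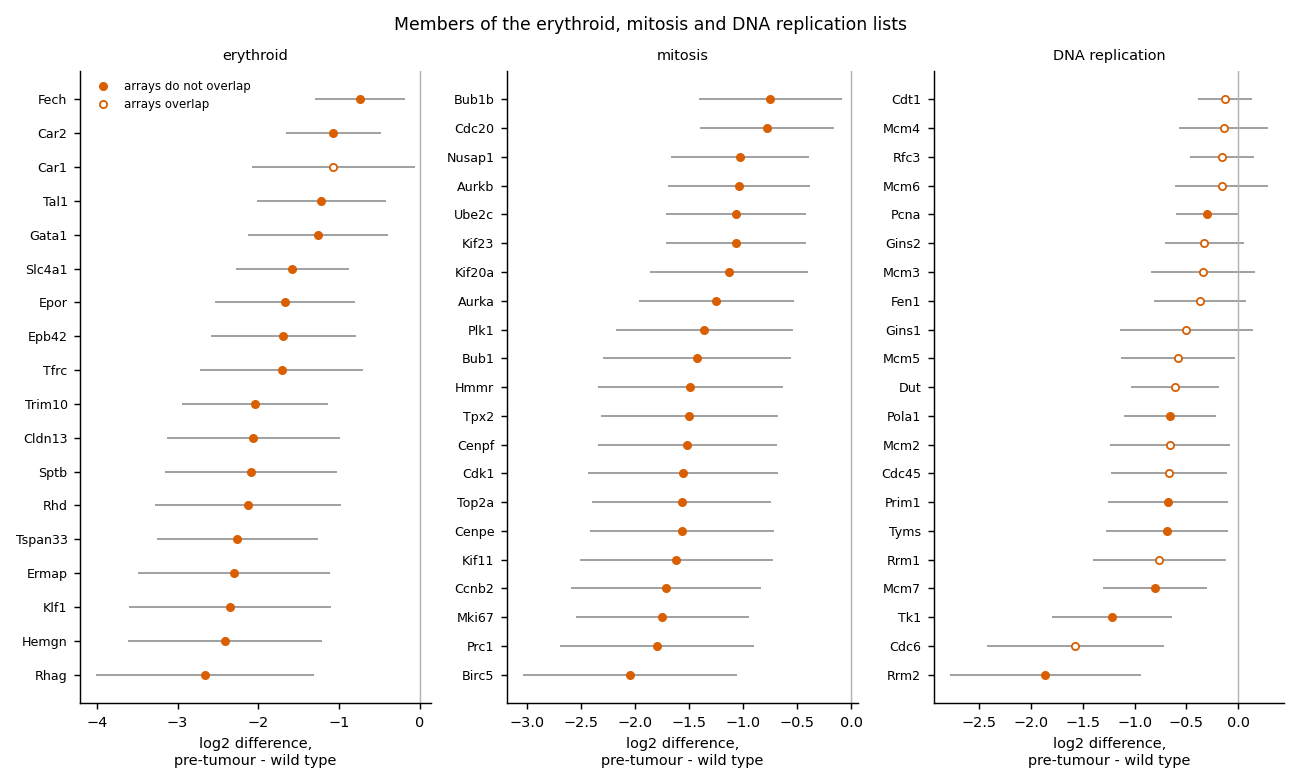
Log2 difference of each measured member of the erythroid, mitosis and DNA replication lists, pre-tumour minus wild type (3 and 3 arrays). Bars are its standard error, with the spread estimated over all 19 arrays. Filled points mark genes whose arrays do not overlap, 17 of 18, 21 of 21 and 7 of 21, and every point lies left of 0.

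The start-site regions of these genes are shown because 21 of 21 mitosis and 17 of 18 erythroid genes read lower on every pre-tumour than on every wild-type array. The motifs were searched on both strands in the 250 bases before the first listed start of each gene (RefSeq, GRCm38.p6), and the search was chosen after the lists' values were seen. The CCAAT box (CCAAT), the element that NF-Y binds, was in 16 of 18 mitosis genes with a promoter in the table (88.9%) and in 35.6% of 16990 measured genes. The cell cycle homology region, taken here as TTTGAA or TTTAAA, through which the MuvB complexes act, was in 10 of 18 (55.6%) against 22.9% of all. TTTAAA reads the same on both strands, and the 2 kinds of motif share no bases where both are shown. The 4 genes that follow hold both within 150 bases of the start, taken by the size of their difference from 7 such genes. They are Mki67 (chr7:135716380-135716529, minus strand), Kif11, a motor of the spindle (chr19:37376232-37376381, plus strand), Top2a, a DNA topoisomerase (chr11:99024190-99024339, minus strand), and Cdk1, the mitotic kinase (chr10:69352913-69353062, minus strand). Capitals mark the motifs on either strand, and each sequence runs 5′ to 3′ on the gene's strand and ends at the base before the start.
Mki67: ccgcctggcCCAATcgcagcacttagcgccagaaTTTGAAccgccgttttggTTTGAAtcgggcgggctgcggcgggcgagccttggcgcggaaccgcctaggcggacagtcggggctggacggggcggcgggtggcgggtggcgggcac
Kif11: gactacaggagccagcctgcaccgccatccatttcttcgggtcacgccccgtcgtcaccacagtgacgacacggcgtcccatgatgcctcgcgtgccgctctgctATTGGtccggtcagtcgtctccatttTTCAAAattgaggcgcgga
Top2a: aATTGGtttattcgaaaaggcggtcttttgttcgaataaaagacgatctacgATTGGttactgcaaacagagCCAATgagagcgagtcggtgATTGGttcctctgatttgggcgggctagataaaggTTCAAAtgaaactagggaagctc
Cdk1: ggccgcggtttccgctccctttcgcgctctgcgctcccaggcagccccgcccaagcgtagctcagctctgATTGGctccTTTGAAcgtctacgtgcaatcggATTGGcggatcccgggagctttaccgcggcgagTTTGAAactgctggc

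For erythroid genes the element searched was the GATA site, AGATAA or TGATAA, which Gata1 binds. It was in 9 of 13 erythroid genes with a promoter in the table (69.2%), against 14.7% of all measured genes. The 3 shown are those with the widest differences among 6 genes that hold it within 150 bases of the start. They are Rhag (chr17:40810999-40811148, plus strand), Hemgn (chr4:46404184-46404333, minus strand) and Klf1 (chr8:84901832-84901981, plus strand), with the GATA site in capitals. The CCAAT box was in 53.8% and the cell cycle homology region in 30.8% of these 13 erythroid genes. The GATA site was in 5.56% of the mitosis genes. Such shares follow from which genes are listed, whatever the arrays read, so they say nothing on the differences between the groups. A match to these letters is a description and not a bound site.
Rhag: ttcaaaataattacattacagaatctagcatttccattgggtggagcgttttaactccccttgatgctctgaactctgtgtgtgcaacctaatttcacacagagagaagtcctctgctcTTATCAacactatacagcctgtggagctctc
Hemgn: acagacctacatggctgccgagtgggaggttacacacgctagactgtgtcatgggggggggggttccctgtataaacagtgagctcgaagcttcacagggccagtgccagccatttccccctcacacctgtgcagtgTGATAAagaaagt
Klf1: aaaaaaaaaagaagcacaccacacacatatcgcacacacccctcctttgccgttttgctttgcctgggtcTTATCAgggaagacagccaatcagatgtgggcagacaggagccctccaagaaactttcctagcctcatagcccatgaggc

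T cell genes read higher. Of 20 listed genes of T cell identity 16 were measured, 0 were called, 16 read higher and 9 of them without overlap, against 8.35% of all genes, with a median difference of 0.65. Cd4, the coreceptor of helper T cells, read 9.17, 9.69 and 9.34 in pre-tumour and 8.13, 9.05 and 7.68 in wild-type spleens, a difference of 1.12 ± 0.49 (adjusted p = 0.883). The receptor of interleukin 7, Il7r, which keeps naive T cells alive, differed by 0.98 ± 0.54, and the costimulatory receptor Cd28 by 0.63 ± 0.34. Ccr7, which guides naive T cells to T cell zones, differed by 0.11 ± 0.75. Wild type replicate 2 stood apart here. Over the list it was at 0.47, equal to the lowest pre-tumour array (0.86, 0.47 and 0.74), while the other wild-type arrays were at -0.16 and -0.33. Without it 14 of the 16 genes were higher without overlap, against 3456 of all 22180 genes, since fewer arrays overlap less often. The median difference ranged from 0.52 to 0.87 without single arrays. Of 17 listed genes of T cell receptor signalling 14 were measured, 14 read higher and 2 did so without overlap (against 8.35%). Their median was 0.40, and 0.29 with the sex covariate. All 8 Gimap genes, which encode GTPases of lymphocyte survival, read higher, 4 without overlap, with a median of 0.40 (0.21 without wild type replicate 3).

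Genes of T cell subsets differed more between animals. All 17 listed genes of T follicular helper cells and checkpoint receptors read higher, 5 without overlap (against 8.35% of all genes). Their median was 0.48. Ctla4, an inhibitory receptor, read 6.93, 7.65 and 7.04 against 6.24, 6.53 and 5.96, a difference of 0.97 ± 0.44. Sh2d1a, the adaptor SAP, and the transcription factor Maf both differed by 0.87, with standard errors of 0.37 and 0.48. Tigit, picked for its spread, read 6.26, 8.43 and 5.94 against 6.03, 5.46 and 5.25. Pre-tumour replicate 2 was the high array, at 1.08 over the list against 0.22 and 0.30, and it was also highest for Pdcd1, Lag3 and Icos. Without it the median of the list was 0.25. Of 14 regulatory T cell genes 13 read higher, 5 without overlap, with a median of 0.35. The cytokine Il10 read 5.60, 5.77 and 4.89 against 4.70, 4.63 and 4.47, and Foxp3, the factor that defines these cells, differed by 0.29 ± 0.31.

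Of 20 listed genes of NK and cytotoxic cells 18 were measured, and 15 read higher. Of these, 6 did so without overlap, against 8.35% of all genes. The median of the list was 0.58. Ccl5, a chemokine of effector T and NK cells, read 12.47, 12.68 and 12.13 against 11.31, 11.19 and 10.81, a difference of 1.32 ± 0.51 (adjusted p = 0.857). Eomes, a transcription factor of memory and cytotoxic cells, differed by 1.12 ± 0.56 and the chemokine Xcl1 by 0.75 ± 0.39. The NK receptor genes Ncr1 and Klre1 differed by 0.13 ± 0.50 and -0.11 ± 0.37. Values of the other NK receptor genes of the list are not given here. The granzyme gene Gzmk reached 10.44 in pre-tumour replicate 2, against 7.33 and 7.01 in the others. The median of the list was 0.38 without that array and 0.32 with the sex covariate, and that of T cell identity was 0.58 with the covariate.

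**Figure D4:**
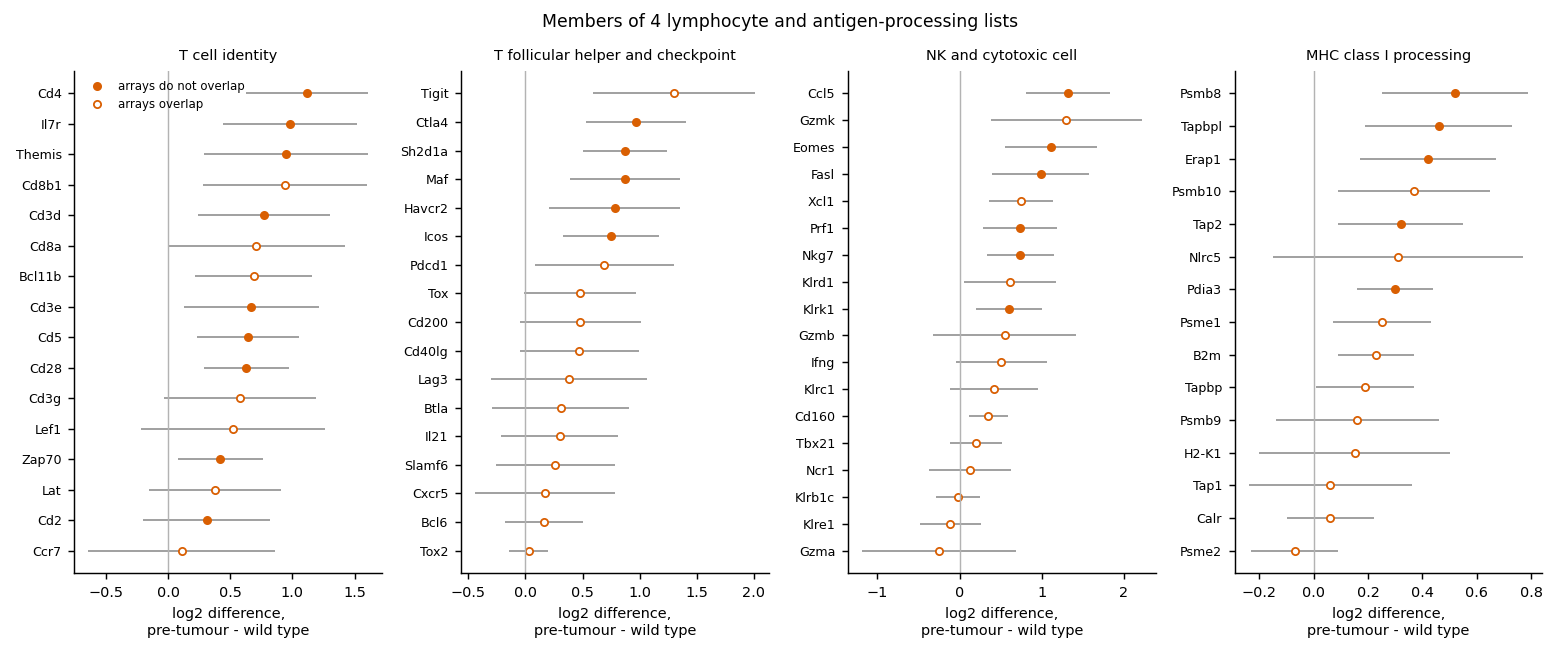
Log2 difference of each measured member of 4 lists, pre-tumour minus wild type (3 and 3 arrays). Bars are its standard error, with the spread estimated over all 19 arrays. Filled points mark genes whose arrays do not overlap, 9 of 16 for T cell identity, 5 of 17 for T follicular helper and checkpoint genes, 6 of 18 for NK and cytotoxic genes and 5 of 15 for MHC class I processing.

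B cell genes had medians near the wild-type level in the main fit. Of 20 listed genes of B cell identity 17 were measured, 9 read higher and 8 lower, 1 did not overlap, and the median was 0.05. Ms4a1 (CD20) differed by 0.26 ± 0.68, Pax5, which holds B cell identity, by -0.10 ± 0.78, and the complement receptor Cr2 by -0.61 ± 1.30. With the sex covariate the median was 0.39. The tumours, which share the estimate of the spread, varied widely in these genes (Cr2 from 4.78 to 11.47), and the standard errors carry that spread. Germinal centre genes had a median of 0.07 over 14 measured members, with 2 higher and 1 lower without overlap. Bcl6, the factor that directs the germinal centre, differed by 0.16 ± 0.34 and Gna13, which confines these cells, by 0.36 ± 0.21. Ezh2, a histone methyltransferase that dividing cells also make, read 7.75, 8.24 and 8.04 against 8.55, 8.41 and 8.75. Marginal zone genes had a median of -0.12 over 11 members and follicular genes 0.14 over 6, of which 6 read higher. Plasma cell genes had a median of 0.01 over 17. With the sex covariate the medians were 0.33 for germinal centre, 0.42 for follicular and 0.05 for marginal zone genes, so that the last turned its sign. These B cell medians lay close to 0 in the main fit, and most moved with the covariate, so no direction is read from them.

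The signalling partners of HGAL differed little. Of 20 listed genes of the B cell receptor pathway 17 were measured, 12 read higher, 3 without overlap, and the median was 0.10, which was 0.20 with the sex covariate and -0.01 without wild type replicate 3. Syk, the kinase that HGAL binds, differed by -0.03 ± 0.43, and the adaptor Blnk by -0.06 ± 0.62. Rhoa, the GTPase that HGAL is known to activate, read 11.16 ± 0.15 in pre-tumour and 10.91 ± 0.11 in wild-type spleens (mean and SD, n = 3 each), a difference of 0.25 ± 0.10 (adjusted p = 0.879). The adaptor Grb2 read 9.33, 9.30 and 9.26 against 9.09, 9.01 and 8.75, and Bcl10, which links antigen receptors to NF-kB, differed by 0.32 ± 0.17. Among 15 measured NF-kB subunits and feedback genes 13 read higher, 1 without overlap (against 8.35% of all genes). Their median was 0.12 (0.02 without wild type replicate 3). Of 17 measured Pias, Socs and Stat genes 6 were higher and 1, Pias3, lower without overlap, with a median of 0.10. The cytokine receptor kinase Jak2 differed by 0.27 ± 0.13 and its inhibitor Socs1 by 0.35 ± 0.15. Of 15 measured Bcl2 family genes 13 read higher, 3 of them without overlap. Bcl2l1 (Bcl-xL), which also protects red cell precursors, was lower without overlap, at -0.91. The survival gene Bcl2 itself read 10.57, 9.65 and 10.20 against 9.23, 9.50 and 9.12.

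Antigen processing and interferon genes read somewhat higher, and unevenly between animals. Of 15 measured genes of MHC class I processing 14 read higher, 5 without overlap (against 8.35% of all genes). Their median was 0.25, which was 0.11 without wild type replicate 3 and 0.17 with the sex covariate. The immunoproteasome subunit Psmb8 read 10.07, 10.02 and 10.13 against 9.69, 9.61 and 9.37, a difference of 0.52 ± 0.27 (adjusted p = 0.883). Of 21 measured type I interferon response genes 17 read higher, 3 without overlap (against 8.35% of all genes). The median was 0.37, and 4 genes, among them Isg15 and Rsad2, read lower. The pre-tumour arrays stood at 0.38, 0.68 and -0.08 over this list and the wild-type arrays at 0.14, -0.04 and -0.07, so pre-tumour replicate 3 was not above any wild-type array. The median was 0.17 with the sex covariate and 0.12 without pre-tumour replicate 2. Of 18 measured interferon gamma response genes 16 read higher, 4 without overlap, with a median of 0.33, which was 0.19 with the sex covariate and 0.13 without pre-tumour replicate 2. The guanylate-binding protein gene Gbp7 differed by 1.16 ± 0.61. Immediate early genes, which respond within minutes to stimulation and to handling of tissue, read higher in 13 of 15 cases, 4 without overlap, with a median of 0.38. Here wild type replicate 3, at 0.47, was above all pre-tumour arrays (0.33 to 0.39), and the median was 0.18 without wild type replicate 2 and 0.21 with the sex covariate.

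Myeloid and stromal genes gave smaller or less even differences. Of 12 monocyte genes 11 read lower, 2 without overlap (against 8.49% of all genes). Their median was -0.25 (-0.09 without wild type replicate 1, -0.35 with the sex covariate). Ly6c2, which T cells also make, was the exception, with 11.60, 11.02 and 11.26 against 10.09, 10.98 and 10.71. Over 20 neutrophil genes the median was -0.17, but the arrays of each group spread widely, from -1.04 to 0.64 in pre-tumour and from -0.86 to 0.97 in wild-type spleens. That median was -0.62 with the sex covariate and ran from -0.75 to 0.31 without single arrays, so it has no settled sign. Macrophage and red pulp genes had a median of 0.21 over 20 members, with 1 higher without overlap, and the sign turned with the sex covariate (-0.04). Of 12 megakaryocyte genes 1 was higher and 2 were lower without overlap (against 8.35% and 8.49% of all genes). Their median was -0.14, and -0.33 with the sex covariate. Nfe2, which red cell precursors also make, was lower, at 5.20, 5.61 and 6.07 against 6.78, 6.87 and 7.25, while the thrombin receptor F2r was higher, at 8.81, 8.47 and 8.91 against 7.55, 7.96 and 7.79. Cxcl13, the chemokine of follicular stroma that attracts B cells, read 7.82, 7.55 and 8.66 against 6.66, 6.20 and 6.53, a difference of 1.55 ± 0.50 (adjusted p = 0.799). The median of 17 stroma and collagen genes was 0.11 (0.04 with the sex covariate), and collagen genes themselves differed by -0.07 to 0.16. Rgs1, a regulator of chemokine receptor signalling picked after its values were seen, differed by 1.61 ± 0.62. Lists with medians between -0.15 and 0.15 included dendritic cells, endothelium, mast cells, stem and progenitor cells, adipose tissue, exocrine pancreas, oxidative phosphorylation, glycolysis, the unfolded protein response, splicing factors, heat shock proteins and the circadian clock. The median of 14 measured p53 targets was 0.17, with 4 higher and 1 lower without overlap, and that of 20 chemokine genes was 0.13, with the sign turned by the sex covariate (-0.10). With that covariate exocrine pancreas stood at 0.17 and heat shock at 0.21.

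**Figure D5:**
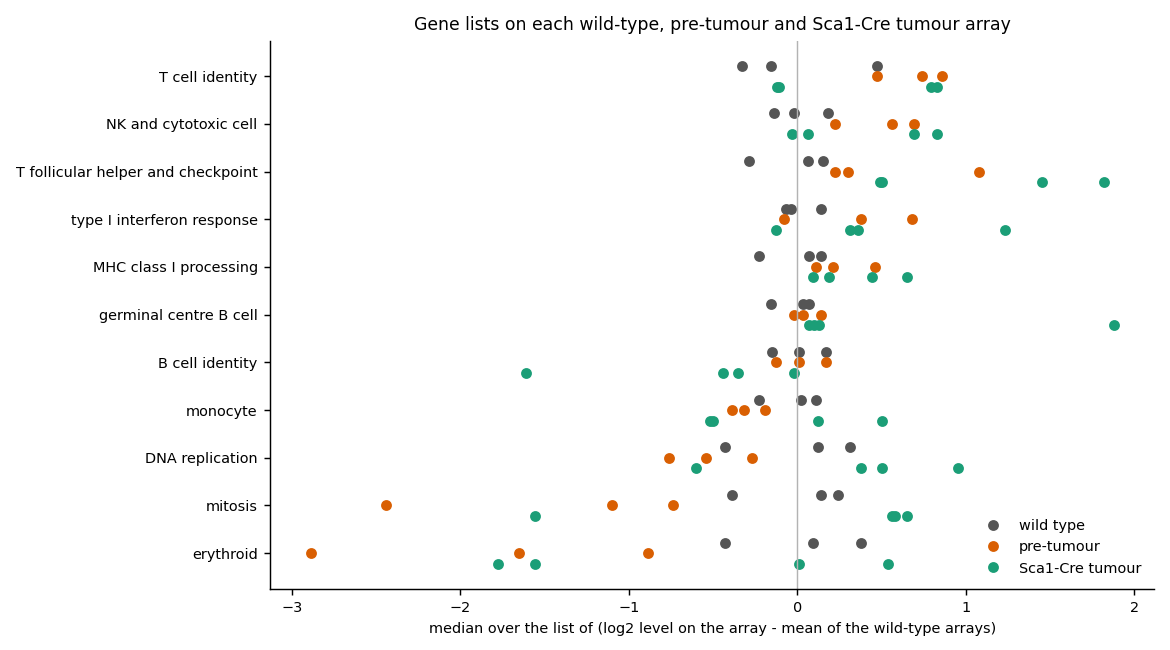
Median over the measured members of 11 gene lists of the log2 level on each array minus the mean of the wild-type arrays, for 3 wild-type, 3 pre-tumour and 4 Sca1-Cre tumour spleens. The erythroid and mitosis medians of the pre-tumour spleens lie below those of all wild-type spleens, and the T cell median of wild type replicate 2 meets the pre-tumour range.

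Groups of RNA outside the protein-coding lists were put together after their values were seen. Of 73 genes of small nucleolar RNAs, which guide the modification of ribosomal RNA, 63 read lower, 18 without overlap (against 8.49%), 1 was higher without overlap, with a median of -0.58. Snord66 read 8.82, 8.74 and 9.05 in pre-tumour and 11.34, 10.55 and 9.82 in wild-type spleens, a difference of -1.70 ± 0.41 (adjusted p = 0.475). Snord118 (U8), needed to process ribosomal RNA, read 5.33, 5.48 and 5.38 against 7.23, 6.40 and 6.68, and Snord15a differed by -1.20 ± 0.29. Wild type replicate 1 was high over the group (0.51) and wild type replicate 3 (-0.41) lay among the pre-tumour arrays (-0.40, -0.71 and -0.37). Without the latter 54 of the 73 genes were lower without overlap, against 2672 of all 22180 genes. In the list of Myc and ribosome biogenesis genes, whose median was 0.09 (0.26 with the sex covariate), 3 of 17 members read lower, among them Nop56, a host gene of such RNAs. Ncl and Npm1 differed by 0.35 and 0.37. All 10 genes encoded by mitochondrial DNA read higher without overlap, with a median of only 0.17. Group means of all but ND6 lay between 12.85 and 13.59, close to the highest deposited value of 13.84, and ND6 read 11.12 against 10.32 as group means. Of 64 genes of ribosomal proteins 53 read higher, 20 without overlap (against 8.35%), with a median of 0.17.

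The Sca1-Cre tumours were then set against the pre-tumour spleens. This comparison shares the pre-tumour arrays with the first, so the 2 are not independent. Of 22180 genes 0 were called in either direction (0% each), 1185 had an unadjusted p under 0.05, and the smallest adjusted p was 0.14. Without overlap, 3.85% of genes were higher and 4.51% lower in the tumours. With only these 2 groups in the fit, H2-Ea was called lower, at -6.48 (adjusted p = 1.27e-06).

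For mitosis genes the tumours stood at -1.56, 0.56, 0.58 and 0.65 from the wild-type mean, so replicate 1 was within the pre-tumour range and the others above wild type. The median difference, tumour minus pre-tumour, was 1.5, with 0 of 21 genes without overlap. Mki67 read 9.55, 11.83, 11.72 and 11.61 in the tumours. For erythroid genes the tumours split, at -1.78, 0.54, 0.01 and -1.56, with a median difference of 1.21 and 0 of 18 genes without overlap. DNA replication genes had a median of 0.87 and 4 of 21 higher without overlap, against 3.85% of all genes. For T cell identity replicates 1 and 3 (0.83 and 0.79) were in the pre-tumour range and replicates 2 and 4 (-0.12 and -0.11) in that of wild type. B cell identity genes had a median of -0.66, with 3 of 17 lower without overlap, against 4.51%. Cd79a read 12.15, 11.75, 9.72 and 11.53. Germinal centre genes had a median of 0.70, with replicate 4 at 1.88 from the wild-type mean and the others at 0.07 to 0.13. In replicate 4 Gcsam read 10.41, Rgs13 10.38 and Mybl1 10.60, against 6.38, 4.56 and 6.32 or less in the other tumours. Of 20 oxidative phosphorylation genes 10 were higher in the tumours without overlap, and of 73 small nucleolar RNA genes 25 were. Mir466h, Prelid2 and Gt(ROSA)26Sor differed by -0.12 ± 0.26, 0.15 ± 0.18 and -0.21 ± 0.36 between tumour and pre-tumour spleens, which is small beside their differences from wild type.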

How the data were processed

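Affymetrix arrays measured total RNA of whole spleen (labels), while the array titles name the samples as splenic cells. Per the submitters' processing notes, RMA from oligo was used. Versions were not given in the sources used here. Values as deposited by the authors were log2 levels per probe set. RMA makes the arrays' distributions alike, and no further scaling was applied. Of 41345 probe sets, 23521 had 1 gene symbol; the brightest stood for a gene with several (1082 genes), which left 22180 genes.

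Groups came from the array titles. limma 3.58.1 in R 4.3.3 fitted 5 group means over 19 arrays (residual degrees of freedom 14), with Benjamini-Hochberg adjustment over all genes and a two-sided threshold of 0.05. The fit was tested on simulated data. The number of arrays limits the precision. Members, 45 gene lists and tests were chosen with earlier results of these data known. Genes were named by rule: Gcsam and driver genes, called genes, then the next by p without overlap (up to 10 per direction, leaving out predicted, small RNA, receptor and sex-linked genes), and the 3 of each list with the smallest p. Genes named beyond the rule show a list's range or role, and their values had been seen when they were picked. Ly6a had no probe set of its own and was not analysed here. Lists carry no test. Alternatives were the compared groups alone, a variance trend with robust settings, quantile normalization, median centring, a filter that left 13308 genes, mean probe sets, array weights, sex, the replicate block and leaving out each array. Promoters came from RefSeq (GRCm38.p6).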

Additional observations from a re-analysis of the deposited data

Results flagged for a closer look

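Of 34 sets of 4 arrays checked for a single stray array (chance picks out about 1 in 20), 3 had one. These were sets of Sca1-Cre tumours. The pre-tumour and wild-type groups, with 3 arrays each, were not checked, so nothing is read from where the stray arrays lie. Gcsam read 10.41 in replicate 4, Mroh3 4.88 in replicate 3 and Dnah8 6.37 in replicate 1. The Aid-Cre and Mb1-Cre groups were not compared and entered the fit only through the shared spread. Among their arrays, H2-Ea stood more than 3 above the highest wild-type array in Mb1-Cre tumour replicate 2 (10.79) and replicate 4 (8.76). Gm19951 did so in Aid-Cre tumour replicate 3 (9.15) and replicate 4 (9.34) and in Mb1-Cre tumour replicate 2 (7.93).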

How the results depend on the processing

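The main counts for pre-tumour against wild type were 0 genes higher and 1 lower. They were 2 higher with only the compared groups in the fit, 27 higher and 26 lower with array weights, and 0 lower with the sex covariate. With the replicate block they were 1 higher (H2-Ea) and 2 lower (Mir466h and Agtr1a). Leaving out each array gave 0 to 1 lower, and the 1 gene, without wild type replicate 3, was Vmn2r96 and not Mir466h. For tumour against pre-tumour, the count lower was 1 with only the compared groups, 1 with array weights, 1 with the replicate block (H2-Ea), and 0 to 1 without single arrays (9030025P20Rik without pre-tumour replicate 3). The cause of these changes was not tested. Whether the replicate numbers pair the samples cannot be told from 3 arrays a group. Deviations of same-numbered arrays correlated at -0.031, 0.057 and 0.133. Pre-tumour replicate 1 correlated best with wild type replicate 2 (0.138), and pre-tumour replicates 2 and 3 with the wild-type array of the same number.

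The sign of Gcsam turned with array weights (-0.07) and without single arrays (range -0.13 to 0.19), and that of Cd79a with quantile normalization (0.02), the sex covariate (0.44) and without single arrays (range -0.11 to 0.06). Of the named genes' values, 462 kept direction and side of the threshold, 28 passed it only under an alternative and 7, all of Mir466h, no longer passed. Of the list medians, 656 moved by less than the spread between arrays and 19 by more. With 3 arrays a group, differences of genes near background are the least exact.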
